A study of Homo sapiens with 2 samples.

Results

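The genes described here encode the proteins of the cytosolic ribosome, and their mRNAs were measured in HCC15 cells, a human line established from a lung cancer and labelled squamous. Members were the probe sets whose platform annotation gives 1 gene symbol, beginning with RPL or RPS and a digit or being RPLP0, RPLP1, RPLP2, RPSA or FAU, without the RPS6K kinases, the pseudogenes and the RPS4Y genes. The rule found 124 probe sets of 63 genes, out of 19775 genes with a probe set of their own. They comprised 32 large subunit genes, 21 small subunit genes, 8 paralogs whose symbols end in L or L1, and 2 noncoding neighbours, RPL26L1-AS1 and RPL34-DT. RPS19BP1, a protein-coding gene whose symbol also ends in P and a number, fell under the pseudogene exclusion. Many ribosomal protein genes carry small nucleolar RNA genes in their introns, and probe sets annotated to both were not members. RPL4, RPL5, RPL10, RPL26, RPLP0, RPSA and RPS27A, among others, were not analysed here.

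A single sample received a control siRNA and another an siRNA against CTNNB1, which encodes beta-catenin, the nuclear effector of Wnt signalling. Cells of both were grown in RPMI medium with 5% serum, and the treatment text, given for both samples, places collection at 48 h. The series title names CTNNB1-mutated NSCLC (non-small-cell lung cancer), the control sample's title carries the word Tax, and the labels do not say what the control siRNA targets. The labels give total RNA as the material, although the protocol text has "tRNA". Each group was 1 array, so there was no replicate and no test between conditions, and every ratio below is CTNNB1 siRNA over control siRNA for this pair of arrays.

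Each ribosome has a small subunit, which reads the messenger RNA, and a large subunit, which joins the amino acids. Their proteins are made from mRNAs that are among the most abundant of growing cells and that begin with a terminal oligopyrimidine tract (TOP), a C followed by an unbroken run of pyrimidines. Through this tract mTORC1, a growth-regulating kinase complex, and the RNA-binding protein LARP1 control how strongly the mRNAs are translated. MYC, in many tissues a target of Wnt signalling, is known to raise transcription of ribosomal protein genes.

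The pyrimidine run is shown here for 4 ordinary members and 2 paralogs, as the feature that most of these genes share and the member-choosing rule did not use. The sequences are from RefSeq (GRCh38.p14), from 45 bases before the annotated transcription start to the first 15 bases of the transcript, and capitals mark the longest run of C or T that reaches within 5 bases of the start. All 6 genes have a single start in the RefSeq table. RPS6 is at chr9:19380222-19380281 (minus strand), RPL39 at chrX:119791616-119791675 (minus), RPS27 at chr1:153990717-153990776 (plus), its paralog RPS27L at chr15:63157463-63157522 (minus), RPL22 at chr1:6199581-6199640 (minus) and its paralog RPL22L1 at chr3:170870181-170870240 (minus).
RPS6: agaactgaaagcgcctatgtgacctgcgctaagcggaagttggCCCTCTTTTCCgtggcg
RPL39: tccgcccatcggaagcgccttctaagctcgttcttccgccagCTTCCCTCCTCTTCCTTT
RPS27: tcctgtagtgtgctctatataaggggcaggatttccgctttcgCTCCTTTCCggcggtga
RPS27L: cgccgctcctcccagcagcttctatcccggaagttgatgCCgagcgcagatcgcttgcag
RPL22: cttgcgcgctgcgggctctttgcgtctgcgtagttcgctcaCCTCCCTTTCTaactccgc
RPL22L1: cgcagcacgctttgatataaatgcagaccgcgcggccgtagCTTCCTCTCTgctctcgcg

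The run had 11 bases in RPS6, 22 in RPL39 (where it goes on past the window shown), 9 in RPS27, 11 in RPL22 and 10 in RPL22L1, but 2 in RPS27L. RefSeq gave a promoter for 47 of the 53 core genes (the large and small subunit genes without paralogs and noncoding neighbours), and the first listed start was used for genes with several. A run of 8 or more was found in 37 of the 47 (78.7%), against 11.3% of 27305 promoters in all. Transcription was annotated to begin at a C in 37 of the 47 (78.7%), against 15% of all promoters. The median run was 11 bases in core genes and 4 over all promoters.

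A set of 6 motifs was searched on both strands of the 300 bases around the start. The search covered the 47 core promoters, all promoters and those of the 10213 genes with a RefSeq promoter that passed the signal filter given below. CCGGAAG, a sequence that ETS factors bind, was in 36.2% of core promoters, 10.7% of all promoters and 18.8% of those above the filter. AAGATGG (YY1) was in 12.8%, 6.06% and 7.51% in the same order. GGGCGG (GC box) was in 55.3% of core promoters, more than the 44.6% of all promoters but less than the 67.9% above the filter. TATAAA was in 6.38% of core promoters, against 12% and 6.09%, and CACGTG, the E-box that MYC binds, in 4.26%, against 7.43% and 10.2%. CTTTGAT, which TCF/LEF factors bind, was in 1 of the 47 core promoters (2.13%), that of RPS27, in 2.64% of all promoters and in 1.47% of those above the filter. Outside the core genes it was also in the promoter of RPL22L1, where its first base lies 36 bases before the start and its last base is the first base of a TATAAA motif. These are matches of letters and no measure of binding.

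The deposited values are linear MAS5 signals. Only probe sets averaging at least 49.1 over both arrays, the median of all values, were used (these are said to enter), and signals under 13.8 were raised to 13.8. Where several of a gene's probe sets entered, the one with the highest average signal gave the gene's value. On these terms 108 of the 124 member probe sets and 59 of the 63 member genes entered: 31 large subunit genes, 21 small subunit genes and 7 paralogs. RPL36A, RPL3L, RPL26L1-AS1 and RPL34-DT did not enter. The RPL36A probe set read 25.8 with control siRNA and 65.4 with CTNNB1 siRNA, and that of RPL3L, a paralog of muscle, read 13.5 and 11.1. RPL26L1-AS1 read 45.2 and 29.6, and RPL34-DT 5.9 and 4.5.

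The targeted gene was lower on the array labelled CTNNB1 siRNA, with 1224 and 339 for its brightest probe set, 27.7% of the control, although its 2 dimmer probe sets read 91.3% and 51% of the control. Of 7 squamous markers 2 entered, SFN (5472 and 5009) and SOX2 (60.1 and 41.6), while KRT5, KRT14 and DSG3 were under the filter and KRT6A and TP63 were not analysed here. All 4 epithelial markers entered, KRT18 (11116 and 12013), KRT8 (8665 and 9259), EPCAM (1083 and 1417) and CDH1 (939 and 594), and of the blood and vessel markers PECAM1 did (96.4 and 80.8) but PTPRC and CD3E did not. Over the 12531 genes that entered, the median log2 ratio was 0.15, and by deciles of signal it ran from -0.23 in the dimmest to 0.27 in the brightest. Among the array's controls, the 7 bright probe sets of hybridisation spike-ins (bacterial and phage transcripts added in fixed amount) had log2 ratios from -0.08 to 0.08. Those 7 read only the bioD and cre transcripts, and all 18 spike-in probe sets ran from -0.40 to 0.08. Log2 ratios of GAPDH were from 0.14 to 0.19 and those of actin from 0.19 to 0.24. The ratio of 3′ to 5′ signal was 1.16 and 1.14 for GAPDH and 1.97 and 1.93 for actin with control and CTNNB1 siRNA. The 28S ribosomal RNA controls read 1580 and 368 for the middle, 496 and 219 for the 5′ and 19.7 and 46.5 for the 3′ probe set, while those of 18S ribosomal RNA had log2 ratios from -0.11 to 0.32. The part of the ribosomal RNA in the results below was not tested.

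None of the 52 core genes was 2-fold lower or higher, against 2.38% and 2.29% of all genes. Nor was any of the 318 genes outside the family with mean signals of at least 5000. In the deposited scaling 50 of the 52 core genes had a log2 ratio above 0, against 64% of all genes. Of the 52, 33 lay above the median of all genes, against 50%, but only 9 did after loess. Among the 318 bright genes outside the family, 300 were above 0 and 246 above that median as deposited. Of the 50 core genes that bright, 49 and 33 were. The median log2 ratio of the 52 core genes was 0.20 (1.15-fold) as deposited and 0.33 with arrays scaled to a common median. It was 0.01 after quantile normalization, -0.02 with a common trimmed mean, -0.07 when centred on the brightest decile of genes and -0.08 after loess. The family's direction therefore depended on the scaling. Whether a signal differed in all cells or in a part of them cannot be told apart in such bulk RNA.

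Other bright genes differed by about as much. Of the 52 core genes, 50 lay in the brightest decile of genes, with mean signals of at least 5000. Those 50 had a median log2 ratio of 0.21 with an SD of 0.09 between genes, and the 318 genes outside the family with such signals had a median of 0.25 with an SD of 0.15. Split at a signal of 10000, the medians were 0.23 for 24 core genes and 0.25 for 303 other genes below it, and 0.18 for 26 core genes and 0.21 for 15 other genes above it. The core median lay 0.07 under that of the brightest decile as deposited, and between 0.05 and 0.08 under it in every alternative but quantile normalization, where the 2 differed by less than 0.01. The summed signal of all member probe sets was 3.56% of the control array's total and 3.48% of the other's.

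**Figure D1:**
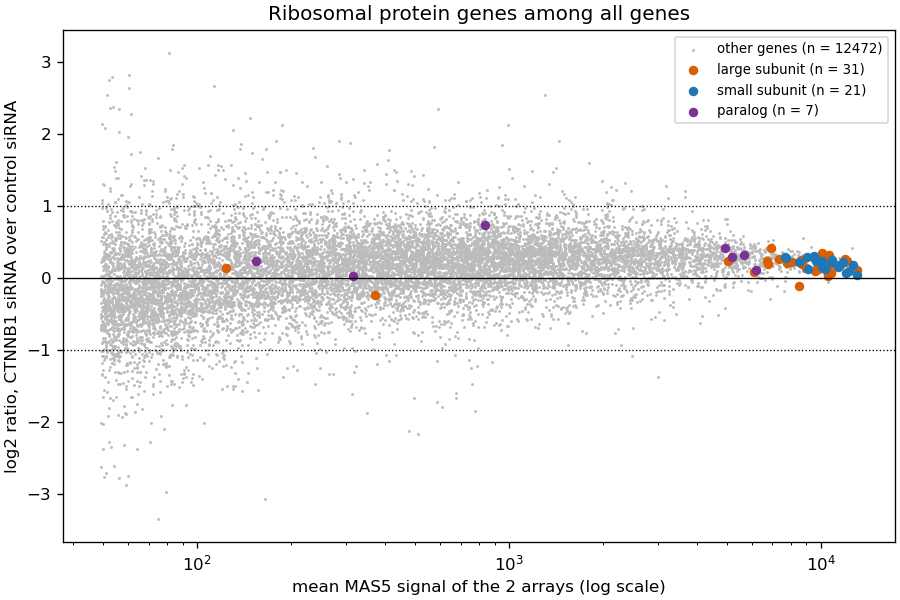
Log2 ratio of CTNNB1 siRNA over control siRNA in the deposited scaling against the mean signal of the 2 arrays (log axis), 1 point per gene, with 12472 other genes in grey and dotted lines at 2-fold. Ribosomal protein genes cluster at the bright end within 2-fold, around a median of 0.20 that turns to -0.08 after loess.

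The spread between the bright core genes was close to the error of a probe set. Between probe sets of the same core gene with signals of at least 2000, the pooled SD of log2 ratios was 0.08 (15 genes, 36 probe sets), beside the SD of 0.09 between the 50 bright core genes. For genes outside the family with equally bright probe sets the pooled SD was 0.14, and over all genes it was 0.42. This SD covers probe set error and transcript isoforms, not variation between cultures. Probe sets that may take signal from related sequences gave like values, with medians of 0.22 for the 12 bright core probe sets ending in a plain _at, 0.20 for the 32 ending in _s_at and 0.19 for the 27 ending in _x_at.

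The 2 subunits gave overlapping ratios. The 31 large subunit genes had a median log2 ratio of 0.19 and ranged from -0.24 to 0.41, and the 21 small subunit genes had a median of 0.22 and ranged from 0.03 to 0.30. The large subunit median minus that of the small subunit was -0.03 as deposited and 0.05 with only plain _at probe sets. Both medians changed sign after loess (-0.09 and -0.07). All 21 small subunit genes but 29 of 31 large subunit genes were above 0 as deposited.

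Among proteins of the small subunit, RPS6, the substrate that gave S6 kinase its name, read 10842 and 12273, a log2 ratio of 0.18, with 0.19 and 0.24 for its other entering probe sets. FAU, which encodes RPS30 fused to a ubiquitin-like protein, read 9974 and 11764 (0.24). RPS15A read 8542 and 10512 (0.30), the highest gene value of the small subunit. RPS9 (0.29), RPS24 (0.29), RPS27 (0.27) and RPS28 (0.27) followed. Another bright RPS9 probe set read 4890 and 6653 (0.44), above the value of RPS15A. At the low end RPS16 read 12951 and 13229 (0.03), RPS19, the gene most often mutated in Diamond-Blackfan anaemia, read 11768 and 12323 (0.07), and RPS23, part of the decoding centre, 11984 and 12734 (0.09). Another bright RPS19 probe set had a log2 ratio of 0.22 and another of RPS16 0.24, gaps larger than the SD of 0.08 between the small subunit genes. Of 9 genes listed for proteins that line the path of the mRNA, 5 were measured (RPS3, RPS9, RPS14, RPS28 and FAU), with ratios from 0.22 to 0.29. All 5 were above the median of all genes as deposited, though their own median of 0.25 turned to -0.03 after loess. With signals of at least 5000, as these 5 had, 33 of 50 core genes and 246 of 318 genes outside the family were above it. Dim entering probe sets of RPS14 (-0.16) and RPS28 (-0.002) were lower. RPS23, which lay under the median of all genes, was not on that list.

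Of the large subunit genes, RPL34 had the highest ratio, with signals of 5923 and 7885 (0.41). RPL8, a protein near the peptidyl transferase centre, read 8852 and 11273 (0.35), and RPL6 9466 and 11810 (0.32). RPL11, which together with RPL5 and 5S ribosomal RNA can bind the p53 regulator MDM2, read 9402 and 11271 (0.26). These 4 were higher with CTNNB1 siRNA as deposited. RPL34 (0.13 to 0.55), RPL8 (0.06 to 0.48) and RPL6 (0.03 to 0.45) stayed above 0 in every setting in which they entered, whereas RPL11 ranged from -0.02 to 0.40. Each of the 4 had 1 entering probe set, and the settings rework the same pair of arrays, so they give no independent reading.

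At the low end of the large subunit, RPL32 was the 1 bright core gene with a lower signal, 8839 and 8153 (-0.12), and it ranged from -0.40 after loess to 0.02 with a common median. RPL27A, measured by a single probe set of moderate signal, read 404 and 341 (-0.24) and was below 0 in all settings in which it entered (-0.51 to -0.11). RPL9 read 10510.3 and 10644 (0.02), RPL39, a protein of the nascent chain tunnel, 10319 and 10711 (0.05), RPL30 10535 and 11030.2 (0.07) and RPL3, which reaches the peptidyl transferase centre, 5952 and 6281 (0.08). The 6 measured genes of proteins around the tunnel exit (RPL19, RPL22, RPL23A, RPL31, RPL35 and RPL39) had ratios from 0.05 to 0.22 and a median of 0.16, which was -0.12 at its lowest over the settings. RPLP1 of the acidic stalk, which recruits elongation factors, read 9924 and 11117 (0.16), and its partner RPLP2 had a single-symbol probe set of low signal, 118 and 130 (0.14).

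**Figure D2:**
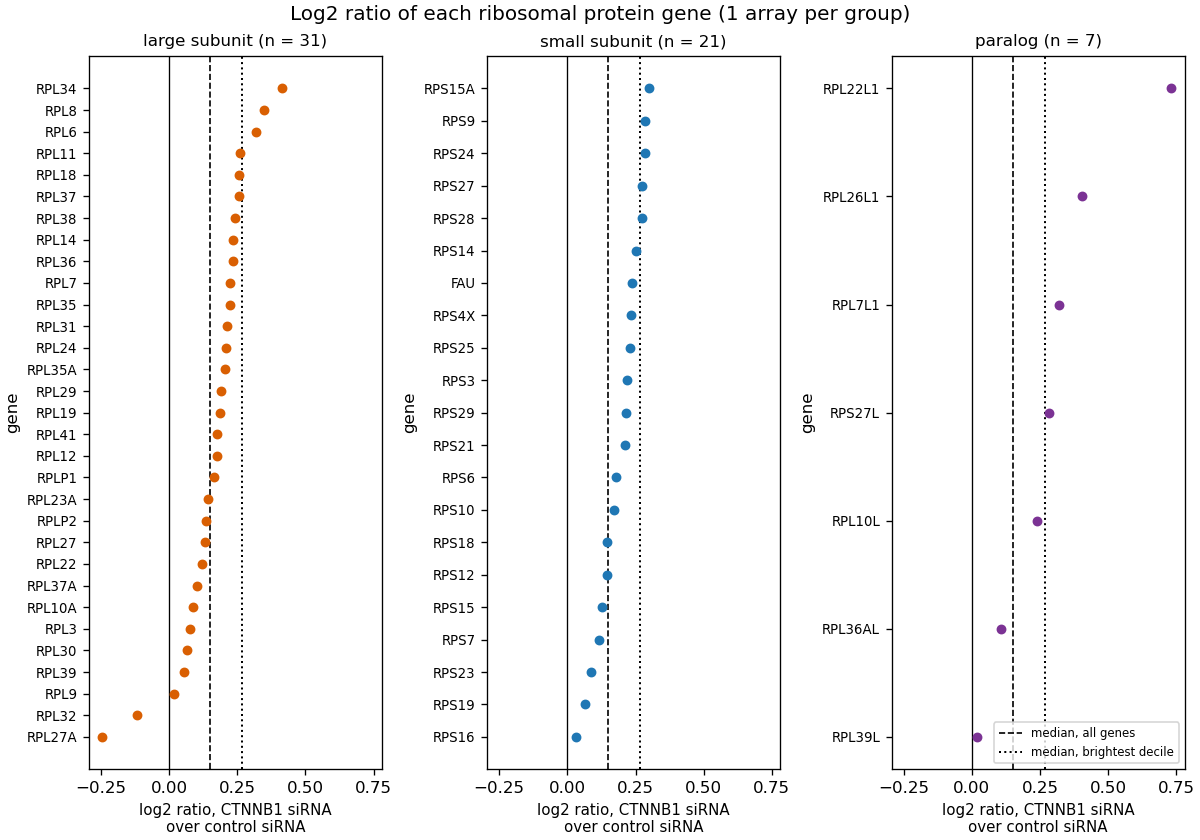
Log2 ratio of CTNNB1 siRNA over control siRNA for each entering gene in the deposited scaling, by class, with the medians of all genes (0.15, dashed) and of the brightest decile of genes (0.27, dotted). RPL22L1 (0.73) is the highest, RPL27A (-0.24) and RPL32 (-0.12) lie below 0, and the signs of 49 of the 59 genes, RPL32 among them (0.02 with a common median), differ between settings.

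The 14 measured genes that are mutated in Diamond-Blackfan anaemia, an inherited failure of red cell production from defective ribosomes, ran from 0.07 to 0.30 with a median of 0.22 as deposited and -0.07 after loess. In core genes a pyrimidine run of 8 or more at the start went with a median log2 ratio of 0.19 (36 genes), and a shorter run with 0.20 (10 genes).

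The 7 paralogs ran from 0.02 to 0.73, and without RPL22L1 the highest was 0.41. RPL22L1, which can take the place of RPL22 in the ribosome, had the largest ratio of all 59 members. It read 629 with control siRNA and 1045 with CTNNB1 siRNA, a log2 ratio of 0.73 (1.66-fold), and stayed between 0.46 and 0.87 in every way of processing. RPL22 itself had 5 probe sets, of which the brightest read 9369 and 10194 (0.12), and they ran from 0.10 to 0.38. With signals under 2000, as RPL22L1 had, the pooled SD between probe sets of the same core gene was 0.58 (7 genes, 15 probe sets). All genes in its decile of signal, the 7th, had a median log2 ratio of 0.20 and an SD of 0.39. RPL22L1 had 1 entering probe set, so no other reading of it was at hand. As deposited it was the 1 member past 1.5-fold in its gene value, against 11.2% of all genes at least 1.5-fold higher and 7.61% at least 1.5-fold lower. It passed 1.5-fold with a common median too, but fell short of it in the other 5 scalings (0.46 to 0.58).

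RPL26L1, a close copy of RPL26, followed with 4252 and 5631 (0.41, from 0.13 to 0.54 over all settings). RPL7L1, a relative of RPL7 that acts in ribosome assembly, read 5033 and 6279 (0.32), beside 11177 and 13061 (0.22) for RPL7. RPS27L, a p53-inducible copy of RPS27, read 4690 and 5708 (0.28), with -0.12 and 0.02 for its dimmer probe sets, beside 8706 and 10528 (0.27) for RPS27. RPL10L, known from the testis, read 142 and 168 (0.24), and RPL36AL 5985 and 6439 (0.11). RPL39L read 313 and 318 (0.02), beside 0.05 for RPL39. Over the 7 paralogs the median was 0.28 as deposited and 0.02 at its lowest over the settings. As deposited 5 of the 7 lay above the median of all genes, against 50% of all genes. Probe sets can take signal from a near-identical copy, so the values of a gene and its paralog are not fully separate.

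Dim probe sets of core genes scattered more than the bright ones. Of the 71 core probe sets with a mean signal of at least 2000, 70 had a log2 ratio above 0 as deposited, with a median of 0.21 and an SD of 0.10. Among genes outside the family with such signals, 1386 of 1567 were above 0. Of the 28 entering core probe sets under 2000, 13 were above 0 and 15 below, with a median of -0.02 and an SD of 0.45. They include the probe sets of RPL27A and RPLP2, which had no bright one. The bright median lay 0.23 above the dim one as deposited, 0.14 after quantile normalization and 0.04 after loess, which removes a dependence of the ratio on signal. After loess both medians were below 0 (-0.08 and -0.12).

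Probe sets of 3 genes lay more than 1 apart. The dimmest entering RPL37A probe set read 196 and 85.4, a log2 ratio of -1.20, the only one of the 108 entering member probe sets past 2-fold in the deposited scaling, against 2.21% of all entering probe sets with a single symbol at least 2-fold lower and 3.42% higher. The bright RPL37A probe set read 12606 and 13526 (0.10) and the third 417 and 543 (0.38). For RPL31 the dimmest of 3 probe sets read 555 and 279 (-0.99, and from -1.26 to -0.86 over all settings), against 11097 and 12842 (0.21) for the bright one. For RPS15A 1 of the dim probe sets read 607 and 343 (-0.82, and from -1.09 to -0.69), so those of RPL31 and RPS15A also passed 2-fold in some settings, against 8542 and 10512 for the bright one. A dim RPL38 probe set went the same way, with 852 and 570 (-0.58), against 7915 and 9356 (0.24). So did a dim RPS10 probe set, with 138 and 91.8 (-0.59), against 11906 and 13419 (0.17) for the brightest. Others were higher, such as 724 and 1058 for a dim probe set of RPL18 (0.55) and 669 and 948 for 1 of RPS21 (0.50). RPL38, RPS10, RPL18 and RPS21 were singled out here after their values were seen. In all, 13 of the 28 member genes with several entering probe sets had ratios of both signs. Which transcripts the dim probe sets read is not given in the sources used here.

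**Figure D3:**
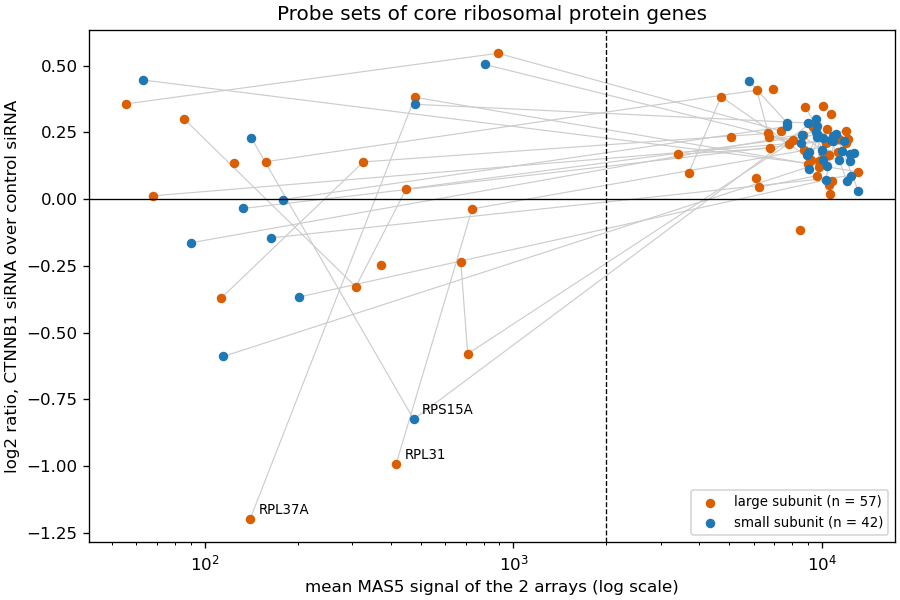
Log2 ratio of CTNNB1 siRNA over control siRNA in the deposited scaling against mean signal (log axis) for the 99 entering probe sets of core genes, with grey lines joining probe sets of 1 gene and a dashed line at a signal of 2000. Bright probe sets lie close together (SD 0.10) and dim ones scatter (SD 0.45). The bright median of 0.21 turns to -0.08 after loess, and the named probe sets of RPL37A, RPL31 and RPS15A lie below 0 in every setting.

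Probe sets annotated to a ribosomal protein gene together with other genes, mostly small nucleolar RNA genes, were not members. They were read on the same arrays with the same scaling, so they are no independent check of the family. Of 65 such probe sets 63 entered. The 47 with a mean signal of at least 2000 had a median log2 ratio of 0.18 and an SD of 0.09. The bright probe sets of the core genes had 0.21 and 0.10. In the deposited scaling 46 of the 47 were above 0, as were 1386 of 1567 genes outside the family with such signals. The 16 dimmer ones had a median of 0.05 and an SD of 0.56, with 9 above 0 and 7 below. Of these 16, 2 were at least 2-fold higher, against 3.42% of all entering probe sets with a single symbol.

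Other genes of the translation machinery shared the upward position of bright genes in the deposited scaling. In that scaling 64% of all genes were above 0, 2.38% were at least 2-fold lower and 2.29% higher. Of 1567 genes outside the family with mean signals of at least 2000, 1386 were above 0, 2 were at least 2-fold lower and 15 higher. Of 20 further genes with TOP mRNAs (elongation factors, initiation factor subunits and others) 16 entered, all 16 were above 0 and none passed 2-fold. Their median was 0.22, and -0.07 at its lowest over the settings. HNRNPA1, an mRNA-binding protein, read 2222 and 3456 (0.64) and NPM1, a nucleolar chaperone, 7987 and 10684 (0.42), and the eIF3 subunits EIF3K (0.05) and EIF3L (0.10) were lowest. Of 18 other initiation factors 16 entered, all above 0 and none past 2-fold in their gene values as deposited, with a median of 0.30 that stayed above 0 (0.01 to 0.43). EIF5B, which joins the subunits, read 2406 and 3376 (0.49), EIF3J 4245 and 5840.1 (0.46), EIF4G2 8236 and 8799 (0.10) and EIF2S2 6288 and 6555 (0.06, with -0.85 for its other probe set).

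Dedicated chaperones of ribosomal proteins and factors that meet the nascent chain had the highest median of these lists in the deposited scaling. All 9 entered, and 8 were above the median of all genes, against 50% of all genes. None passed 2-fold as deposited, against 2.38% of all genes lower and 2.29% higher. DNAJC2, a chaperone at the ribosome, read 1698 and 3292 (0.96, and 1.09 with a common median, past 2-fold), and GRWD1, a chaperone of RPL3, 493 and 792 (0.68). TSR2, the escort of RPS26, read 383 and 360 (-0.09, and 0.05 with a common median) and PDCD2L 444 and 520 (0.23, and -0.04 at its lowest). The list's median was 0.42 and stayed above 0 in all settings (0.13 to 0.55), whereas the core genes' median did not. No test of the difference between the lists was made.

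Genes of the mTORC1 and S6 kinase pathway, which controls translation of TOP mRNAs, went both ways. Of 10 genes, 1 was at least 2-fold lower and none 2-fold higher as deposited, against 2.38% and 2.29% of all genes. EIF4EBP1, a translational repressor that mTORC1 phosphorylates and that ATF4 is known to induce, read 912 and 433 (-1.07, and -0.94 with a common median, short of 2-fold). The S6 kinase gene RPS6KB2 read 216 and 147 (-0.56). RHEB, the small GTPase that activates mTORC1, read 3172 and 5539 (0.80, and 1.24 with only plain _at probe sets, past 2-fold), and RPTOR, the scaffold subunit of mTORC1, 111 and 197 (0.83). The list's median was -0.08 as deposited, 0.06 with a common median and -0.34 at its lowest over the settings.

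Proteins of the mitochondrial ribosome, made by a separate set of genes, were more dispersed than those of the cytosolic one. All 75 genes entered, with a median of 0.18 and an SD of 0.29 between genes. In the deposited scaling 52 were above 0 and 23 below, beside 64% of all genes above 0. The 52 cytosolic core genes had an SD of 0.11. The 2 families differ in signal, and the spread between genes also falls with signal over all genes, from an SD of 0.68 in the dimmest decile to 0.24 in the brightest. MRPL38 read 201 and 457 (1.18, and 0.92 at its lowest, short of 2-fold) and was the 1 mitochondrial member past 2-fold as deposited. Of all genes 2.29% were at least 2-fold higher and 2.38% lower. MRPS18B read 2882 and 4641 (0.69), MRPS6 1724 and 1154 (-0.58) and MRPL50 1518 and 1049 (-0.53, with -0.20 for its other probe set).

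**Figure D4:**
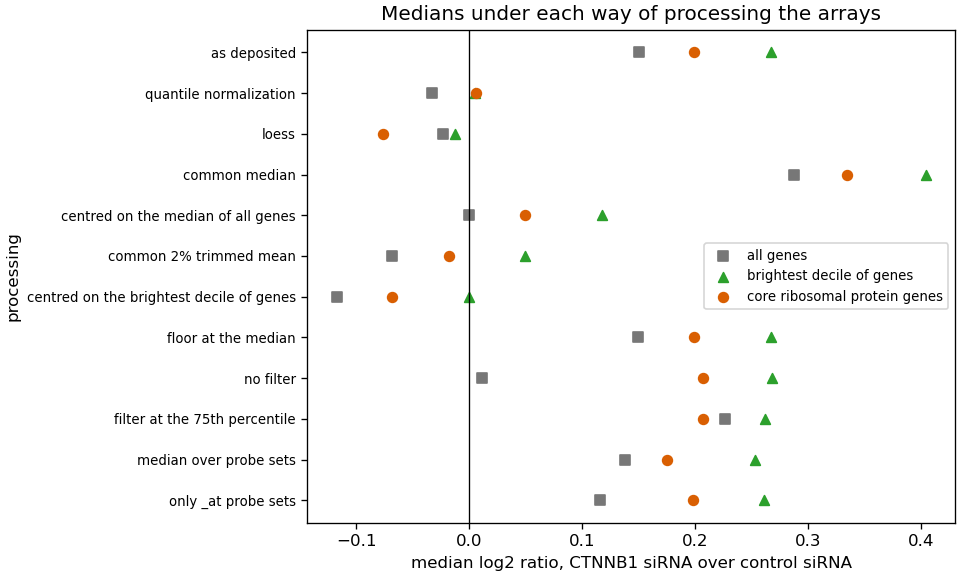
Median log2 ratio of CTNNB1 siRNA over control siRNA (horizontal axis) for all genes (squares), the brightest decile of genes (triangles) and core ribosomal protein genes (circles) in the deposited scaling and 11 alternatives (vertical axis). The core median runs from -0.08 after loess to 0.33 with a common median and lies under that of the brightest decile in every setting but quantile normalization.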

How the data were processed

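Total RNA of HCC15 cells was measured on biotin-labelled arrays, 1 per group. The authors deposited 1 linear signal intensity per probe set and array, made with MAS5, per the submitters' processing notes. The version of MAS5, its scaling target, the detection calls and a genome build were not given in the sources used here. Of 54675 probe sets, 41097 had 1 gene symbol in GEO's platform annotation, 1801 several and 11777 none listed, and 41043 symbols were updated through Entrez numbers to RefSeq.

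Log2 ratios were computed in Python 3.11.15 with numpy 2.4.6, pandas 2.3.3 and statsmodels 0.14.6 from the intensities as deposited, with a floor at the 25th percentile, a filter at the median and no pseudocount. A call was a difference of at least 2-fold. The calculation was tested on simulated arrays. With 1 array per group no p-value was possible, and the number of arrays limits the precision. Alternatives were 6 scalings, another floor, 2 filters and 2 choices of probe set. The members and gene lists were chosen with earlier results of these data known. Genes named were the paralogs with their parent genes, RPLP1, RPLP2, RPL11, FAU and RPS6, the 8 lowest and 8 highest core genes, members with a probe set past 2-fold or probe sets more than 1 apart, and the 2 lowest and 2 highest of each pathway list; others were added for their place in the ribosome.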

Additional observations from a re-analysis of the deposited data

How the results depend on the processing

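The core genes' median log2 ratio, 0.20 as deposited, was 0.0061 after quantile normalization, -0.077 after loess, 0.33 with a common median, 0.049 when centred on all genes, -0.018 with a common 2% trimmed mean and -0.068 when centred on the brightest decile. The count of core genes above the median of all genes, 33 of 52, was 9 after loess, 51 of 53 with no filter, 18 of 51 with a filter at the 75th percentile, and 15 of 24 with plain _at probe sets. No core gene was 2-fold higher except 1 with no filter, RPL36A, and the large minus small subunit difference, -0.03 as deposited, moved by less than 0.1 in all of them but was 0.046 with plain _at probe sets. A 1.5-fold rule (0 core genes either way) and a restriction to signals of at least 2000 (median 0.21) were chosen after seeing the data. Of the 59 member genes, 9 were above 0 and 1 below 0 in every setting in which they entered, and 49 changed sign. The settings rework the same pair of arrays and are no replicates. Among all genes the lower ones made up 50.9% of 2-fold calls as deposited, 57.4% after quantile normalization, 52.9% after loess, 27.9% with a common median, 73.3% centred on all genes, 81.2% with the trimmed mean and 83.6% centred on the brightest decile. No paired analysis was possible because each group had 1 array. The floor is no detection limit, and dim probe sets have larger errors.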
